A study of Mus musculus with 8 samples.

Results

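The genes described here are 37 interferon-stimulated genes, a set that holds *Ifitm3* and *Oas2*. They were chosen by symbol, and their rows were found through the Ensembl gene identifiers of the GRCm38 annotation. Of the 37 genes, 36 had a row among the 31053 genes of the count table and 31 passed the filter on low counts, among 11080 tested genes in all. *Oas1a*, *Oas3*, *Ifit2*, *Mx1* and *Irgm1* fell below the filter, and *Mx2* was not analysed here.

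The RNA came from visceral white adipose tissue (vWAT, called EWAT in the sample titles) of 4 wild-type (WT) and 4 KIKO mice, with 1 library per mouse. The KIKO strain models Friedreich's ataxia, a neurodegenerative disease. Its genetic change is in every cell from the germline on, and the WT mice do not carry it. Mice of both groups were males of the C57BL/6 strain aged 8 months. Mice fed butyrate, which the study also used, were not analysed here.

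Interferons are cytokines that cells release when they sense foreign or misplaced nucleic acid. Type I interferons bind the receptor of IFNAR1 and IFNAR2, and the kinases JAK1 and TYK2 then set off a complex with STAT2 and IRF9 that binds a promoter element named ISRE. Interferon gamma acts through another element, named GAS. The genes that both elements switch on encode sensors, transcription factors and antiviral effectors, and many of them have a low level without infection in macrophages, endothelial cells and adipocytes.

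The ISRE letters were present in most of the genes whose promoters could be read. Promoters were read from RefSeq for GRCm38.p6 as windows of 300 bases, from 250 before to 50 after a transcription start. There were 32851 windows for 27025 genes, and a gene was counted if any of its windows held a match. Of the 37 genes, 28 had a window, and *Oas2* had none. The letters GAAANNGAAA, searched on both strands, were found in 18 of those 28 genes and in 3.99% of 27025 genes. The letters TTCNNNGAA, a core of the GAS element whose matches read the same on both strands, were found in 7 of the 28 and in 9.55% of the 27025 genes. A match is a string of letters and not a shown binding site. The 4 stretches of 160 bases that end at the base before the start, and the 30 bases that open the *Ifitm3* transcript, are shown because they set genes with different values in KIKO mice beside each other. They run 5′ to 3′ on the strand of the gene, and capitals mark matches to GAAANNGAAA on either strand.
Ifitm3 (chr7:141010715-141010744, minus strand): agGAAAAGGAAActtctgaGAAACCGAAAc
Ifitm2 (chr7:140955962-140956121, minus strand): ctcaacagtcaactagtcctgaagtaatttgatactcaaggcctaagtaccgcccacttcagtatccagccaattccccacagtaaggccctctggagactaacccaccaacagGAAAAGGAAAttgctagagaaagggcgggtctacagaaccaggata
Gbp7 (chr3:142530176-142530335, plus strand): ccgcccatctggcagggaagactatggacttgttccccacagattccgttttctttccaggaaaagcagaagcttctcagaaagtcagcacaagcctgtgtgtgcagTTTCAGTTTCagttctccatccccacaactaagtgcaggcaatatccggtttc
Isg15 (chr4:156200819-156200978, minus strand): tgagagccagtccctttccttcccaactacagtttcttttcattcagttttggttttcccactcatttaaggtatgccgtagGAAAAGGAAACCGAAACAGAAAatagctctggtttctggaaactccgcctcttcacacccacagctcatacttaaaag
Ifit3 (chr19:34583369-34583528, plus strand): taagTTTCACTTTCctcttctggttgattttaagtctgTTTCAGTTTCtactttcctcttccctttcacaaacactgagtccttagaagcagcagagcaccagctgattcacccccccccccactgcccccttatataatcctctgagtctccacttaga
In *Ifitm3* the matches lay within the transcript, at bases 3 to 12 and 20 to 29, with a GAS match at bases 14 to 22 that overlaps the second of them. In *Ifitm2* the single match lay 46 to 37 bases before the start, and no GAS match was found. Both members of this gene pair held an ISRE match, and the part of these matches in their RNA levels was not tested.

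Libraries held 2602189 to 3478539 counts, and 14822 to 15389 genes had a count in each. Levels are given as CPM, counts per 1000000 after TMM scaling, and 1 CPM stood for 2.50 to 3.41 counts. On the first principal component WT mice 1 to 4 lay at -39.8, -18.9, 13.1 and -8.70, and the KIKO mice at 3.88 to 25.2. The WT mice were thus widely spread, with WT mouse 3 within the KIKO range and WT mouse 1 farthest from it. Long transcripts were favoured in some libraries: the rank correlation, across genes, of a gene's deviation with its transcript length was -0.109 to 0.261 for the WT libraries and -0.213 to -0.084 for the KIKO libraries. The part of this in the values below was measured only through a correction for length and GC content. Of 8 marker genes of the epididymis, which lies against this depot, 7 had no count in any mouse, and the adipocyte markers summed to at least 37195 CPM in every mouse.

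Among the 31 tested interferon-stimulated genes, *Ifitm3* was higher and *Ifitm2* and *Oas2* were lower in vWAT of KIKO mice, and 28 did not pass the test. To pass, a gene needed an adjusted p under 0.05 in the quasi-likelihood test of edgeR across the 11080 genes. The 3 genes that passed were 9.68% of those tested, where 0.677% of all genes passed, 0.280% as higher and 0.397% as lower. At an unadjusted p under 0.05 there were 8 members, 4 higher and 4 lower, which was 25.8% of them against 16.2% of all genes. In 4 members the values of WT and KIKO mice did not overlap, with *Ifitm3* and *Samd9l* higher and *Ifitm2* and *Oas2* lower in every KIKO mouse. That was 12.9% of the members against 8.45% of all genes. The members were chosen with earlier results of these data known, so these shares are not a test of the set. Without *Ifitm3*, *Ifitm2* and *Oas2*, 17.9% of the remaining 28 genes had an unadjusted p under 0.05 in edgeR, and 3.57% did not overlap.

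The median change of the genes lay near 0, and a shift of the set was not tested. The median log2 fold change of the 31 genes was 0.06, with 19 above and 12 below 0, and that of all genes was -0.007. Estimates above 0 made up 61.3% of the members and 49.0% of all genes. Leaving out each mouse in turn gave medians of the 31 genes from -0.03 to 0.19. Without *Ifitm3*, *Ifitm2* and *Oas2* the median of the remaining 28 genes was also 0.06, and their log2 fold changes ran from -0.46 to 1.10. The median size of a change, sign left aside, was 0.230 on the log2 scale in the members and 0.194 in all genes.

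**Figure D1:**
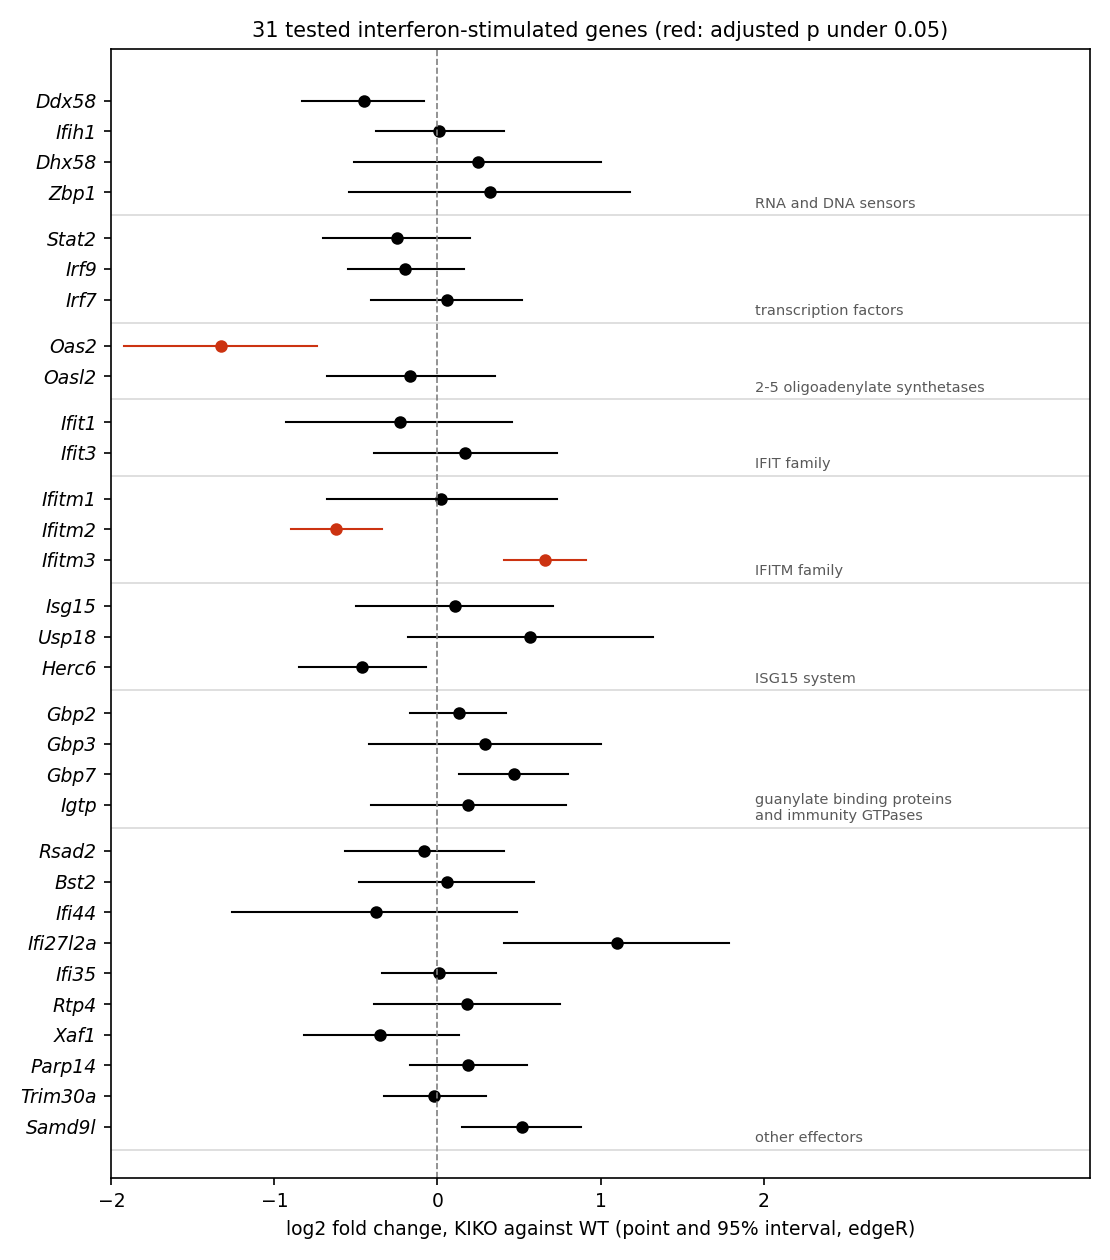
Log2 fold change of each tested interferon-stimulated gene in KIKO against WT mice (horizontal axis), with points for the edgeR estimate and lines for its 95% interval, grouped by role (vertical axis). Red marks the 3 genes that passed, *Ifitm3* at 0.66, *Ifitm2* at -0.62 and *Oas2* at -1.33, and the intervals of most other genes span 0.

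The IFITM proteins sit in endosomal and plasma membranes and block the entry of enveloped viruses. Their genes lie together on chromosome 7 of GRCm38, with *Ifitm3* (ENSMUSG00000025492) at 141009586 to 141010770, *Ifitm2* (ENSMUSG00000060591) at 140954837 to 140955987 and *Ifitm1* (ENSMUSG00000025491) at 140967221 to 140969825. *Ifitm3* measured 394, 451, 475 and 448 CPM in WT mice 1 to 4 and 760.4, 705, 671 and 658 CPM in KIKO mice 1 to 4. The lowest KIKO mouse was above the highest WT mouse, and the 4 WT mice lay close together. The mean was 442 ± 34.1 CPM in the WT against 699 ± 45.7 CPM in the KIKO group (SD, n = 4 each), 1.58-fold higher in KIKO mice, with a log2 fold change of 0.66 ± 0.12 (SE, adjusted p = 0.0326 in edgeR). Over single mice, the 2-sided exact permutation test gave p = 0.0286, the smallest that 4 against 4 mice allow.

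*Ifitm2* differed the other way. It measured 312, 269, 234 and 233 CPM in WT mice 1 to 4 and 188, 179, 147 and 168 CPM in KIKO mice 1 to 4. Every KIKO mouse was below every WT mouse, with WT mouse 1 the highest. The mean was 262 ± 37.5 CPM in the WT against 171 ± 17.6 CPM in the KIKO group (SD, n = 4 each), 1.53-fold lower in KIKO mice, with a log2 fold change of -0.62 ± 0.13 (SE, adjusted p = 0.0453 in edgeR).

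*Ifitm3* exceeded *Ifitm2* in every mouse, but not by the same ratio. The ratio of their CPM was 1.26, 1.68, 2.03 and 1.92 in WT mice 1 to 4 and 4.04, 3.94, 4.55 and 3.91 in KIKO mice 1 to 4. A ratio within a library does not depend on its scaling, and the lowest ratio in KIKO mice was above the highest in WT mice. With *Ifitm3* higher and *Ifitm2* lower in every KIKO mouse the ratio had to separate the groups, so it is not further evidence. The sum of both genes was 704 ± 16.6 CPM in the WT against 870 ± 60.6 CPM in the KIKO group (SD, n = 4 each), with no overlap between the groups (2-sided exact permutation p = 0.0286), so the gain in *Ifitm3* was larger in CPM than the loss in *Ifitm2*. *Ifitm1* was low in both groups, at 6.50 ± 3.02 CPM in the WT against 6.69 ± 1.69 CPM in the KIKO group (SD, n = 4 each), and its log2 fold change of 0.02 had a 95% interval of -0.68 to 0.73.

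**Figure D2:**
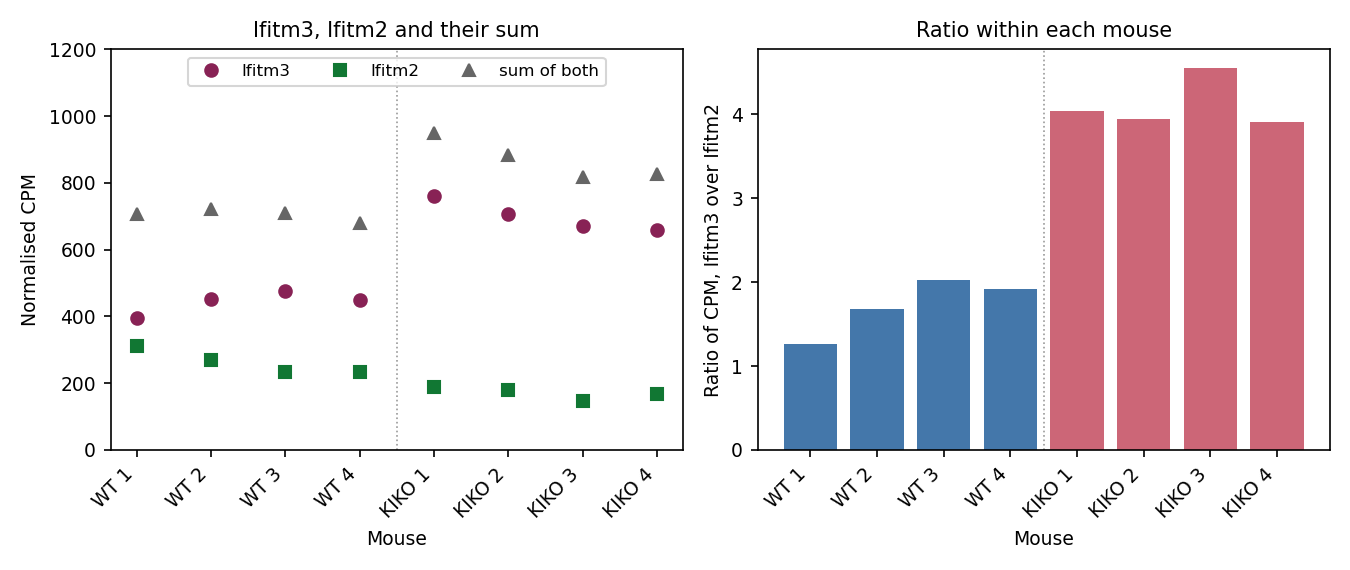
Left, normalised CPM of *Ifitm3* (circles), *Ifitm2* (squares) and their sum (triangles) in each of the 8 mice. Right, bars of the ratio of *Ifitm3* to *Ifitm2* CPM in each mouse, at 1.26 to 2.03 in WT (blue) and 3.91 to 4.55 in KIKO mice (red).

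The transcripts of the family were compared for reads that could count for more than one gene. Of the 75-base words of annotated *Ifitm2* and *Ifitm3* transcripts, none was shared between both genes or with *Ifitm1*, at the read length the labels give. Trimmed reads can be shorter: at 50 bases *Ifitm2* and *Ifitm3* shared 20 words and *Ifitm1* and *Ifitm3* shared 15, and at 25 bases *Ifitm2* and *Ifitm3* shared 50. *Ifitm2* shared 42.0% of its 581 words with other annotated genes, named *Gm45717*, *Gm11951*, *Gm2840*, *Gm45308* and *Gm8865*. Of these, *Gm45717* had no count in any mouse, and the others were not analysed here. *Ifitm3* shared 0.662% of its words, with *Gm7676*. The *Ifitm2* values are therefore less certain than those of *Ifitm3*, and how reads with several matches were counted was not given in the sources used here.

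The 2′-5′ oligoadenylate synthetases make a messenger that activates RNase L when they bind double-stranded RNA. *Oas2* (ENSMUSG00000032690, chromosome 5 from 120730333 to 120749853) measured 9.51, 9.99, 8.70 and 7.37 CPM in WT mice 1 to 4 and 3.96, 4.80, 2.92 and 2.64 CPM in KIKO mice 1 to 4. These values stand for 22 to 33 counts a mouse in WT and 9 to 12 counts in KIKO mice, and no KIKO mouse reached the lowest WT mouse. The mean was 8.89 ± 1.15 CPM in the WT against 3.58 ± 0.992 CPM in the KIKO group (SD, n = 4 each), 2.52-fold lower, with a log2 fold change of -1.33 ± 0.28 (SE, adjusted p = 0.0442 in edgeR). Its transcripts shared no 75-base word with another annotated gene.

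The other synthetases gave no such difference. *Oasl2*, a related protein that also binds RNA sensors, measured 32.3, 24.5, 16.7 and 14.7 CPM in WT mice 1 to 4 and 25.1, 22.0, 15.2 and 17.0 CPM in KIKO mice 1 to 4. The groups overlapped, with WT mouse 1 above every KIKO mouse, and the log2 fold change of -0.17 had a 95% interval of -0.68 to 0.35 (adjusted p = 0.777 in edgeR). *Oas1a* had 9 counts over the WT and 6 over the KIKO mice, and *Oas3* had 17 and 13 counts, too few for the test. Of the words of *Oas1a*, 47.6% also occurred in *Oas1g*, which had 3 counts over all mice, 1 in WT and 2 in KIKO mice.

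The calls of these 3 genes were lost when most single mice were left out. Without WT mouse 3, *Ifitm3*, *Ifitm2* and *Oas2* all passed (adjusted p = 0.00872, 0.0135 and 0.0227 in edgeR), and 654 of all genes did. Without WT mouse 1, *Ifitm3* passed (0.0421), and *Ifitm2* (0.0742) and *Oas2* (0.0734) did not. None of the 3 passed in edgeR without WT mouse 2, WT mouse 4 or any one KIKO mouse: the adjusted p of *Ifitm3* was then 0.102 without WT mouse 2, 0.106 without WT mouse 4, and 0.100, 0.0513, 0.0501 and 0.152 without KIKO mice 1 to 4. For *Ifitm2* the same fits gave 0.140, 0.111, 0.122, 0.0728, 0.103 and 0.198, and for *Oas2* 0.140, 0.106, 0.122, 0.0513, 0.0950 and 0.197, in the same order. No omission turned a direction, and the log2 fold changes stayed within 0.61 to 0.70 for *Ifitm3*, -0.67 to -0.52 for *Ifitm2* and -1.48 to -1.20 for *Oas2*. With an offset for transcript length and GC content the log2 fold change of *Ifitm3* was 0.48 (adjusted p = 0.0854 in edgeR), that of *Oas2* -1.31 (0.0610) and that of *Ifitm2* -0.81 (0.0410).

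**Figure D3:**
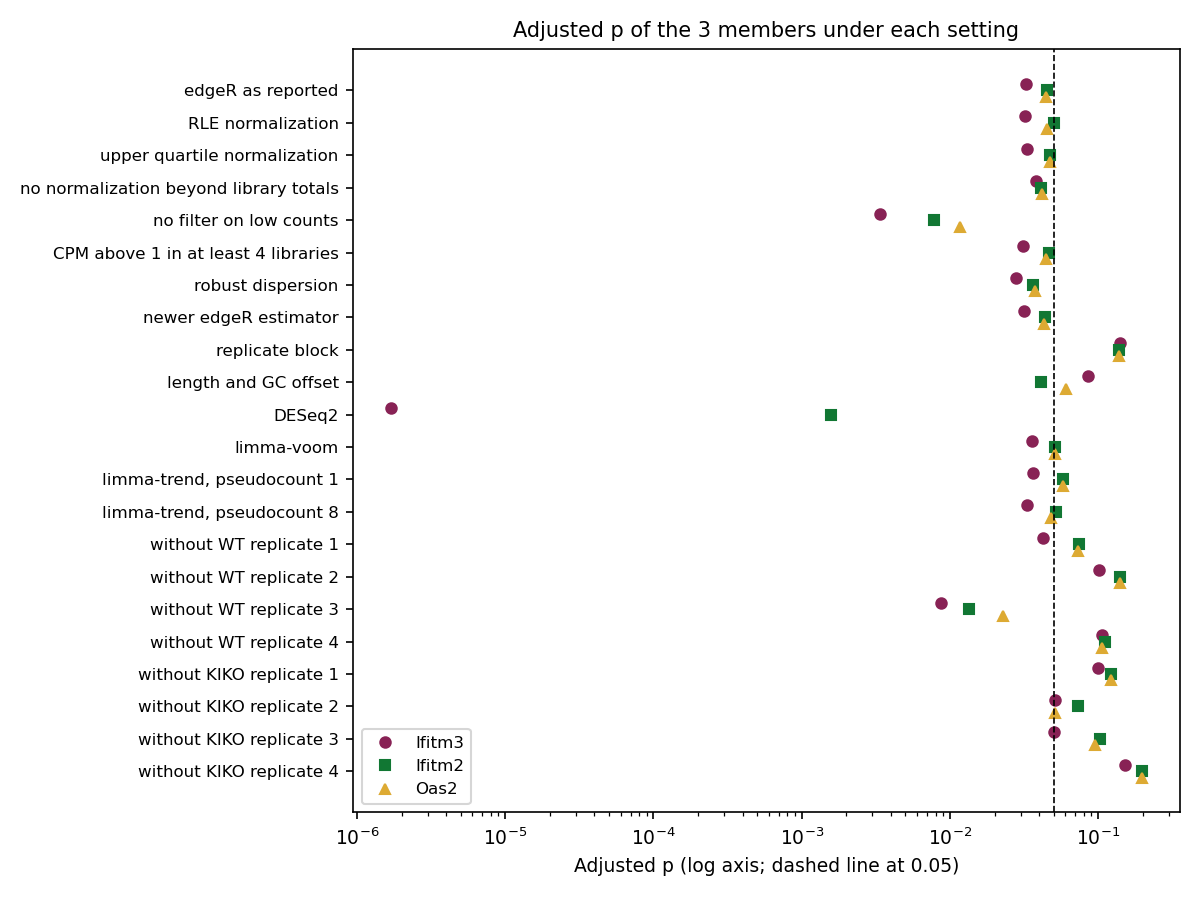
Adjusted p on a log axis (horizontal) of *Ifitm3* (circles), *Ifitm2* (squares) and *Oas2* (triangles) under each setting (vertical), with a dashed line at 0.05. *Ifitm3* passed in 11 of the 13 alternative settings that kept all mice, and in 2 of the 8 that left out 1 mouse, those without WT mouse 1 or WT mouse 3.

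Among the sensors of foreign RNA and DNA, none of the 4 genes passed. *Ddx58*, which encodes the RNA helicase RIG-I, measured 21.6, 34.5, 29.1 and 30.5 CPM in WT mice 1 to 4 and 23.8, 21.2, 17.2 and 22.3 CPM in KIKO mice 1 to 4. WT mouse 1 lay among the KIKO mice and the other WT mice above them, with a log2 fold change of -0.45 ± 0.17 (SE, adjusted p = 0.214 in edgeR). *Ifih1*, which encodes the RNA sensor MDA5, had a log2 fold change of 0.01, *Dhx58*, its relative LGP2, 0.25, and *Zbp1*, a sensor of left-handed nucleic acid, 0.32.

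The factors that carry the interferon signal to the genome also did not pass. *Irf9*, the DNA-binding part of the complex on the ISRE, measured 55.2, 71.8, 38.2 and 51.6 CPM in WT mice 1 to 4 and 50.2, 46.4, 42.4 and 50.4 CPM in KIKO mice 1 to 4. WT mice held both the highest and the lowest value, and the log2 fold change was -0.20 ± 0.17 (SE, adjusted p = 0.606 in edgeR). *Stat2* had a log2 fold change of -0.25, and *Irf7*, which amplifies the output of type I interferon genes, one of 0.06 with a 95% interval of -0.41 to 0.52.

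The IFIT proteins bind viral RNA that lacks the host's cap methylation. *Ifit3* measured 11.4, 22.7, 20.1 and 19.4 CPM in WT mice 1 to 4 and 23.8, 9.59, 25.6 and 22.8 CPM in KIKO mice 1 to 4. KIKO mouse 2 was below all WT mice and the other 3 KIKO mice were above them, and the log2 fold change was 0.17 ± 0.26 (SE, adjusted p = 0.800 in edgeR). Of the *Ifit3* words, 41.1% also occurred in its copy *Ifit3b*, and the sum of both genes was 24.0 ± 7.31 CPM in the WT against 32.0 ± 9.66 CPM in the KIKO group (SD, n = 4 each; 2-sided exact permutation p = 0.314). *Ifit1* had a log2 fold change of -0.23 with a 95% interval of -0.93 to 0.46, and *Ifit2* had 32 counts in WT and 37 in KIKO mice, below the filter. Of the Mx GTPases, which trap viral nucleocapsids, *Mx1* had 9 counts in WT and 12 in KIKO mice.

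ISG15 is a ubiquitin-like protein that is attached to other proteins after interferon, HERC6 is the ligase that attaches it in mice, and USP18 removes it and dampens the receptor. *Herc6* measured 25.0, 34.2, 20.1 and 23.1 CPM in WT mice 1 to 4 and 18.8, 15.6, 19.4 and 20.5 CPM in KIKO mice 1 to 4. The ranges overlapped only between WT mouse 3 and KIKO mouse 4, and the log2 fold change was -0.46 ± 0.18 (SE, adjusted p = 0.237 in edgeR). *Isg15* had a log2 fold change of 0.11, with a 95% interval of -0.50 to 0.71, and *Usp18* had one of 0.57 at 2.48 ± 0.894 CPM in the WT against 3.67 ± 0.776 CPM in the KIKO group (SD, n = 4 each).

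The guanylate binding proteins and the immunity-related GTPases, which coat vacuoles that hold microbes and respond above all to interferon gamma, had estimates above 0 in the 4 genes tested, and none passed. *Gbp7* measured 72.3, 95.4, 61.9 and 81.0 CPM in WT mice 1 to 4 and 125, 82.7, 119 and 103 CPM in KIKO mice 1 to 4. KIKO mouse 2 lay within the WT range and the other 3 KIKO mice lay above it, with a log2 fold change of 0.47 ± 0.16 (SE, adjusted p = 0.167 in edgeR). *Gbp2* had a log2 fold change of 0.13, *Gbp3* of 0.29 and *Igtp* of 0.19, and *Irgm1*, below the filter, had fewer counts in KIKO mice, 29 against 44 in WT mice. *Gbp7* and *Gbp3* share sequence, and their sum was 89.2 ± 19.2 CPM in the WT against 121 ± 22.9 CPM in the KIKO group (SD, n = 4 each; 2-sided exact permutation p = 0.0571).

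The other effectors held the largest single estimate above 0. *Ifi27l2a*, which encodes a small hydrophobic interferon-induced protein, measured 1887, 1057, 541 and 868 CPM in WT mice 1 to 4 and 2773, 1145, 3024 and 2408 CPM in KIKO mice 1 to 4. It varied more than 3-fold within WT mice, and WT mouse 1 was above KIKO mouse 2. The log2 fold change was 1.10 ± 0.32 (SE, adjusted p = 0.113 in edgeR), and without WT mouse 1 it was 1.51 and the gene passed (adjusted p = 0.0356 in edgeR). It passed without no other single mouse, and with robust dispersion in edgeR the adjusted p was 0.27. The summed CPM of the whole set, this gene included, ran from 1816 to 3161 over the WT mice and from 2582 to 4545 over the KIKO mice.

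*Samd9l*, which encodes an effector that restricts translation, was the fourth gene without overlap. It measured 19.0, 13.0, 15.7 and 17.4 CPM in WT mice 1 to 4 and 21.5, 20.4, 24.6 and 26.4 CPM in KIKO mice 1 to 4. The log2 fold change was 0.52 ± 0.17 (SE, adjusted p = 0.163 in edgeR). The remaining effectors were close to 0 or had wide intervals: *Rsad2*, which encodes the radical enzyme viperin, had a log2 fold change of -0.08, *Bst2*, which tethers budding virus, 0.06, *Ifi35* 0.01, *Trim30a* -0.02, *Rtp4* 0.18, *Parp14* 0.19, *Xaf1* -0.35 and *Ifi44* -0.38.

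**Figure D4:**
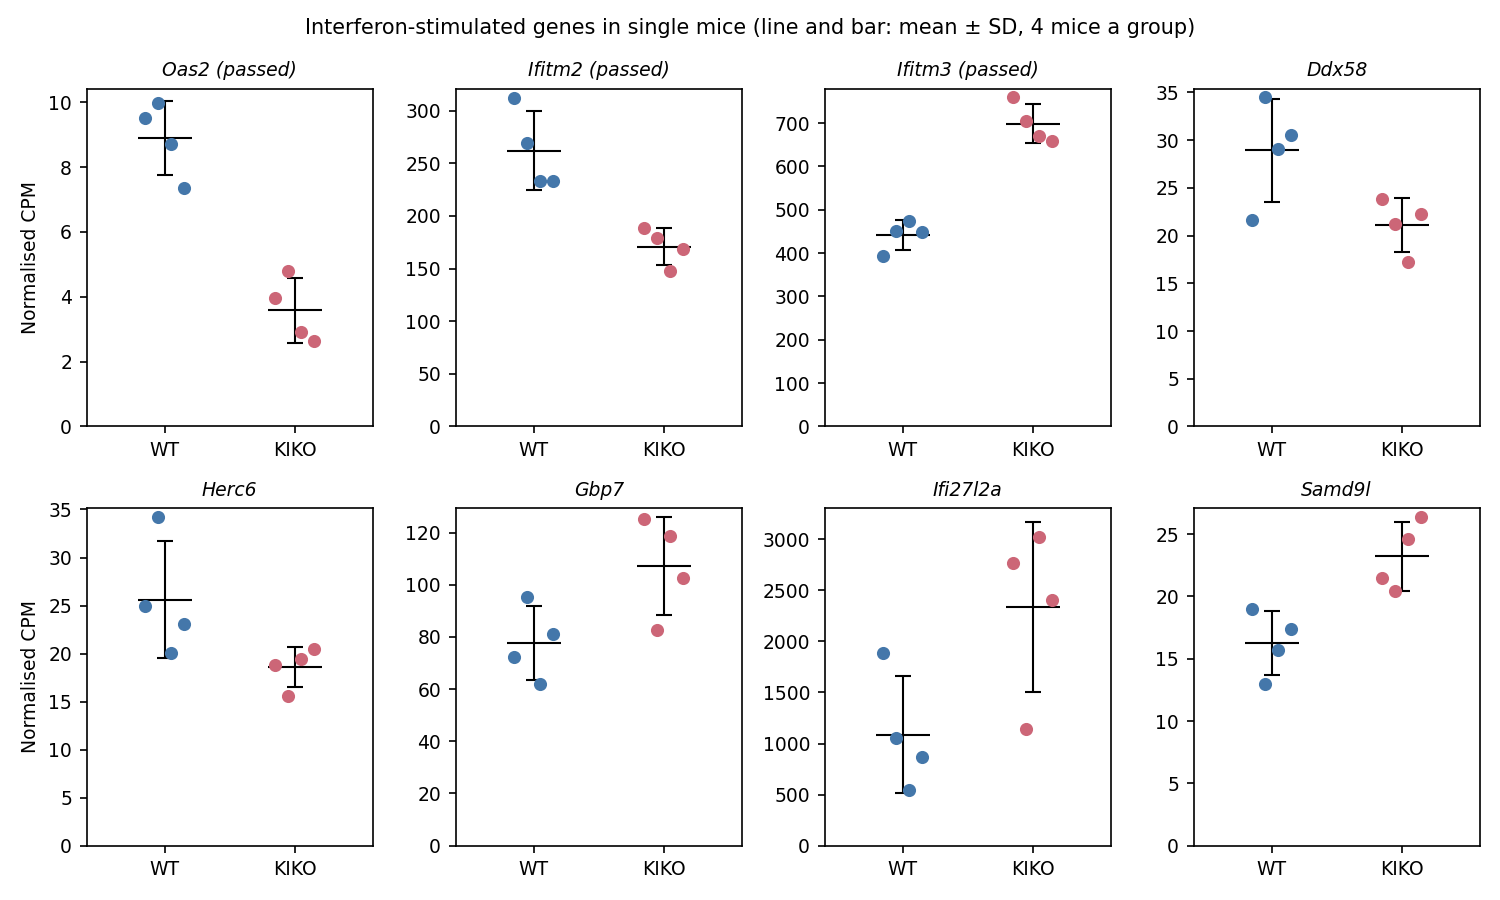
Normalised CPM of the 8 interferon-stimulated genes with an unadjusted p under 0.05, with 1 point per mouse, mean and SD (n = 4 mice a group), each axis from 0. *Oas2*, *Ifitm2* and *Ifitm3* passed and show groups apart, *Samd9l* shows them apart without passing, and the other 4 overlap.

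Within a genotype, many of the genes were high or low in the same mice. WT mouse 2 was the highest of the 8 mice in 14 of the 31 genes, which is 45.2% of them, where it was the highest in 12.1% of all genes. KIKO mouse 2 was the highest in none, against 11.3% of all genes, and the lowest in 7, which is 22.6% against 12.8% of all genes. WT mice 3 and 4 were each the lowest in 6, which is 19.4%, against 13.3% and 7.69% of all genes. The mean deviation of the 31 genes from their mean over all mice was 0.35 on the log2 scale in WT mouse 2, whereas the 3 remaining WT mice had -0.20 to -0.10, and -0.23 in KIKO mouse 2, against 0.06 to 0.18 in the other KIKO mice. Without WT mouse 2 the median log2 fold change of the 31 genes was 0.19, and without any other single mouse it was between -0.03 and 0.06.

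After each genotype's mean was removed, the mean correlation over the 465 pairs of members was 0.219 across the 8 mice, and over pairs of all genes it was 0.000319. These points share libraries and their scaling, and the counts of many of the genes are low. The scaling holds the value over all genes near 0, so that value does not show what another set of this size would give. *Parp14* (0.429), *Herc6* (0.419) and *Isg15* (0.417) had the highest mean correlation with the other members. The 5 lowest were *Ifitm2* (-0.00058), *Oas2* (-0.0447), *Gbp2* (-0.078), *Ifi35* (-0.118) and *Samd9l* (-0.276). These genes did not follow the mice in which *Isg15* and its like were high. Of them only *Ifitm2* and *Oas2* passed the test of genotype, and *Ifitm3*, which also passed, was at 0.0814.

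**Figure D5:**
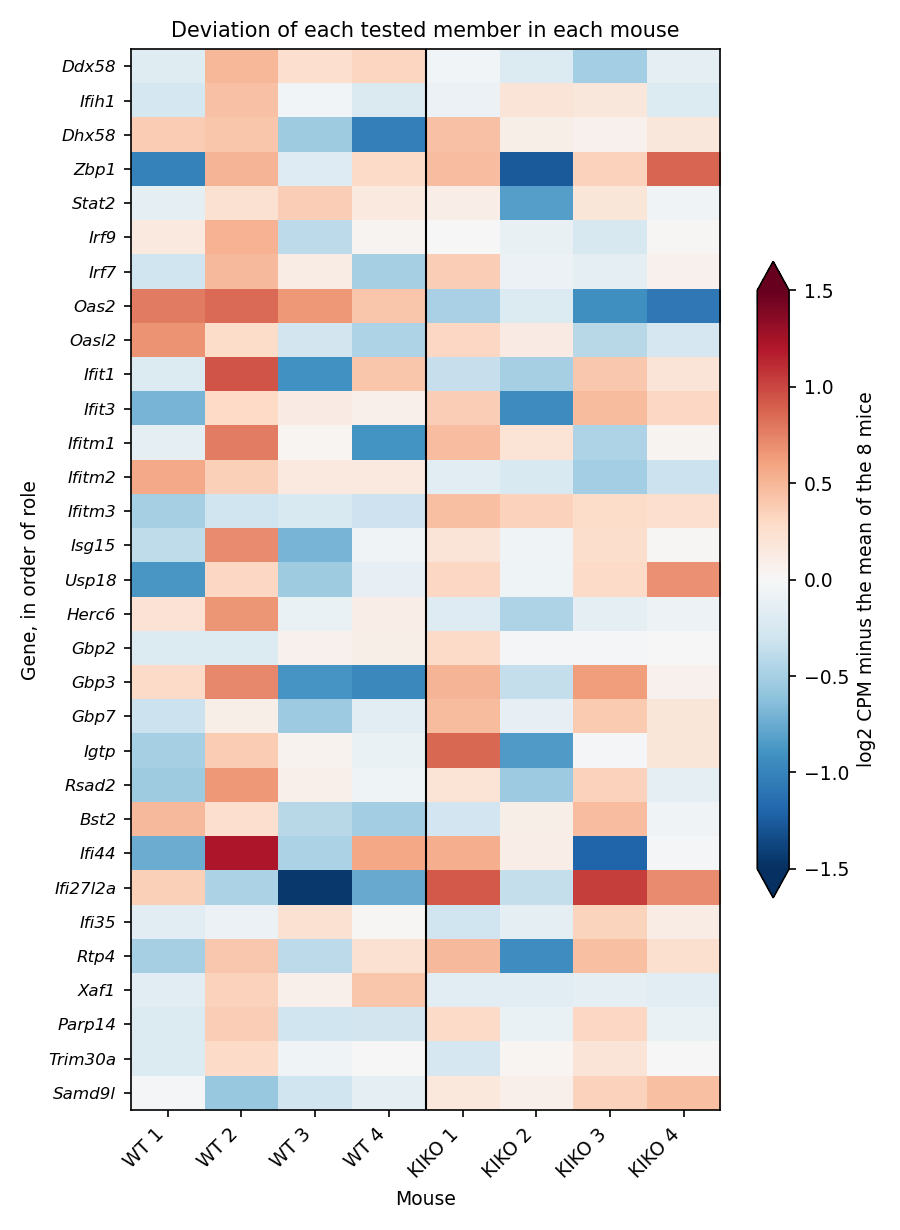
Log2 CPM of each of the 31 tested genes (vertical axis, in order of role) in each of the 8 mice (horizontal axis), minus the gene's mean over all mice, from blue (below) to red (above). WT mouse 2 is red in most genes and KIKO mouse 2 blue in many, whereas *Oas2*, *Ifitm2* and *Ifitm3* split by genotype.

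Of 133 other genes of the interferon pathway, 91 were tested and none passed in edgeR, with 9 higher and 1 lower at an unadjusted p under 0.05, which was 11.0% of them against 16.2% of all genes. In DESeq2, 2 of them passed (*Shisa5* and *Lgals3bp*, both higher), where 260 of all genes did, and without WT mouse 3 the edgeR test passed 3 (*Shisa5*, *Lgals3bp* and *Ifi207*) among 654 of all genes. Of the 21 interferon genes themselves, 19 had no count in any mouse, *Ifng* had 1 count in KIKO mice 2 and 4 each, and *Ifne* had 1 count in KIKO mouse 3. A count of 0 allows up to 0.880 to 1.20 CPM in a library (3 counts), so a low level of interferon RNA was not detectable at this depth.

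The receptors and kinases of the pathway were all present but for the lambda receptor. *Ifnar1* had a log2 fold change of -0.17 (95% interval -0.59 to 0.26) and *Ifnar2* of 0.18 (-0.09 to 0.45). The smallest p among 9 tested receptor and signalling genes was that of *Ifngr1*, the receptor chain that binds interferon gamma, at a log2 fold change of -0.41 (adjusted p = 0.376 in edgeR). *Ifnlr1* had 1 count in all. Of 8 tested inhibitors, *Adar* had the smallest p, at a log2 fold change of -0.29 (adjusted p = 0.557 in edgeR). Of 16 tested sensing genes and adaptors, *Sting1*, the adaptor of DNA sensing, was at 0.49 (0.237), *Irf3*, the factor it activates, at 0.32 (0.264) and *Myd88*, an adaptor of Toll-like receptors, at 0.38 (0.270), with adjusted p from edgeR in brackets.

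Among 58 tested genes of a wider interferon-induced list, 40 had estimates above 0 and 18 below, with a median log2 fold change of 0.08. Of all genes, 49.0% had estimates above 0. *Shisa5*, which encodes a membrane protein of the endoplasmic reticulum, measured 136, 148, 202 and 158 CPM in WT mice 1 to 4 and 280, 227, 210.2 and 249 CPM in KIKO mice 1 to 4. It did not overlap between groups and did not pass, with a log2 fold change of 0.59 ± 0.14 (SE, adjusted p = 0.0709 in edgeR). *Lgals3bp*, a secreted galectin ligand, had 202 ± 14.7 CPM in the WT against 281 ± 43.1 CPM in the KIKO group (SD, n = 4 each), with a log2 fold change of 0.48 ± 0.13 (SE, adjusted p = 0.0959 in edgeR). *Ifit3b*, the copy of *Ifit3*, had 5.60 ± 2.56 CPM in the WT against 11.5 ± 2.74 CPM in the KIKO group (SD, n = 4 each), with a log2 fold change of 1.04 ± 0.31 (SE, adjusted p = 0.121 in edgeR).

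Whole tissue was sequenced, so fewer cells of a type and less RNA per cell cannot be told apart. Several marker lists had estimates mostly on 1 side of 0, where 49.0% of all genes had estimates above 0. All 12 endothelial markers had estimates below 0, with a median log2 fold change of -0.34, none passed, and their summed level was 1146 to 1571 CPM in WT and 778 to 1153 CPM in KIKO mice. Of 12 macrophage markers, 10 had estimates above 0, and *Lyz2* passed at 0.95 (adjusted p = 0.0326 in edgeR), with summed levels of 1868 to 2065 CPM in WT and 2184 to 2702 CPM in KIKO mice. The 10 adipocyte markers, 8 of them above 0, summed to 37195 to 44201 CPM in WT and 48559 to 65724 CPM in KIKO mice, and none passed. *Cfd* differed most in CPM, at a mean of 17978 in the WT against 29498 in the KIKO group, with overlap between groups. *Cidec* (-0.24) and *Retn* (-0.10) were below 0. All 5 tested monocyte markers, 5 of 6 tested markers of B and plasma cells and 5 of 6 of the mesothelium were above 0. Of the 10 markers of plasmacytoid dendritic cells, a chief source of type I interferon, 4 were tested and none passed: *Klk1* was at 0 in all mice, *Siglech* at 1.34 to 7.77 CPM and *Ccr9* at 0 to 1.98 CPM. Their summed level, 396 to 532 CPM in WT and 356.5 to 444 CPM in KIKO mice, came mostly from *Tcf4*. Of the other marker lists, the mesothelial genes *Upk1b* (0.90) and *Krt19* (1.15) passed as higher (adjusted p = 0.0355 and 0.0326 in edgeR). No tested marker of adipose progenitors, monocytes, neutrophils, T, NK, B or plasma cells or conventional dendritic cells passed. Only 2 of 9 neutrophil, 2 of 12 T and NK and 2 of 7 conventional dendritic cell markers were tested, so these lists say little about those cells. Of the 69 tested markers of all lists, 4.35% passed, against 0.677% of all genes. The part of all these markers in the values of *Ifitm3*, *Ifitm2* and *Oas2* was not tested.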

How the data were processed

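RNA of vWAT of 4 WT and 4 KIKO mice was measured with 1 library each. The raw counts per Ensembl gene were deposited by the authors, who had used Trimmomatic, HISAT2, StringTie and DESeq2 with GRCm38. A second deposited table, log2 of the count over a size factor, plus 1, served as an alternative. The library kit and instrument differ between the paper (TruSeq stranded, NextSeq500) and the labels (a digital mRNA service, NovaSeq). The annotation release and the counting of reads with several matches are not given in the sources used here.

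Counts were normalised with TMM, filtered with filterByExpr and tested with the quasi-likelihood test of edgeR 4.0.16 in R 4.3.3, genotype as the only term, with Benjamini-Hochberg adjustment over 11080 genes. The common biological coefficient of variation was 0.160. Standard errors were derived from the fold change and its test statistic. Single values were tested with a 2-sided exact permutation test over 70 assignments. The steps were tested on simulated data. Library pairs within a genotype differed by more than sampling noise (chi-square over its degrees of freedom of 3.81 to 19.3). GENCODE transcripts of GRCm38 gave positions and 75-base words, and RefSeq gave promoters.

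Values per mouse are shown for *Ifitm3*, *Oas2*, members that passed or had an unadjusted p under 0.05, and the tested member of highest mean CPM in each role. Other tested members are given by fold change, untested ones by counts, and of each other list the genes that passed and up to 3 of smallest p. Shown too, chosen after values were seen, are promoters, gene pairs that share words, *Ifnar1*, *Ifnar2* and the plasmacytoid markers. The members and lists were chosen with earlier results of these data known. Alternatives were other normalisations (RLE, upper quartile, none), other filters, DESeq2 1.42.0, limma-voom and limma-trend from limma 3.58.1, other edgeR dispersion settings, a replicate block, an offset for length and GC content (mgcv 1.9.3), and leaving out each mouse. The check of the targeted gene and 1 further gene are not reported here. The paper states that the WT controls were littermates, but labels do not state which mice shared a litter or cage. The p-values thus treat the mice as independent and measure the spread between these mice.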

Additional observations from a re-analysis of the deposited data

Results flagged for a closer look

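Of 62 groups of 4 mice (31 genes in WT and in KIKO mice), 3 held a mouse whose gap to the nearest other mouse was over 0.83 of the group's range, and chance alone gives about 1 in 20 such groups. *Gbp2* was at 45.9 CPM in KIKO mouse 1, with the other KIKO mice at 37.2 to 37.8 CPM. *Parp14* was at 76.9 CPM in WT mouse 2, with the other WT mice at 48.2 to 51.4 CPM, and WT mouse 2 was also the highest mouse in 14 of the 31 genes. *Xaf1* was at 7.77 CPM in KIKO mouse 3, with the other KIKO mice at 7.59 to 7.62 CPM, so that all 4 values were nearly equal. None of the 3 genes passed the test of genotype.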

How the results depend on the processing

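The count of members that passed was 3 of 31. It was 2 to 4 with RLE, upper quartile or no normalisation, either other filter, both other edgeR dispersion settings, DESeq2 and limma-trend with a pseudocount of 8, 1 with the length and GC offset, limma-voom or limma-trend with a pseudocount of 1, 0 with the replicate block, and 0 to 3 without 1 mouse. Over all genes, 75 passed, against 382 without a filter, 260 in DESeq2, 45 in limma-trend with a pseudocount of 1, 40 in limma-voom, 30 with the offset, 0 with the replicate block and 0 to 654 without 1 mouse. Of the other pathway genes, 2 passed without a filter, 2 in DESeq2 and 0 to 3 without 1 mouse. Fewer mice leave a smaller test, and other causes were not tested.

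Same-numbered mice of both genotypes deviated from their group means with correlations of -0.149, -0.129, -0.108 and 0.0296. These values show no pairing by number, but with so few mice they cannot exclude shared litters or batches. With the replicate block the adjusted p in edgeR was 0.141 for *Ifitm3*, 0.138 for *Ifitm2* and 0.138 for *Oas2*, and log2 fold changes of 0.66, -0.61 and -1.32 were kept. In DESeq2, *Ifitm3* (adjusted p = 1.69e-06) and *Ifitm2* (0.00157) passed and *Oas2* had no adjusted p. *Ifitm2* lay above the threshold with RLE (0.0504), limma-voom (0.0515) and limma-trend (0.0580 and 0.0521 for pseudocounts of 1 and 8), and *Oas2* with limma-voom (0.0515) and limma-trend with a pseudocount of 1 (0.0580). Without a filter, *Ifi27l2a* passed (0.000939 in edgeR), and it passed in no other alternative that kept all mice.

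The direction of *Ifitm3*, *Ifitm2*, *Oas2*, *Ddx58*, *Herc6*, *Gbp7*, *Ifi27l2a* and *Samd9l* did not turn under any alternative. It turned for genes near 0: with no normalisation in *Ifih1* (-0.06), *Irf7* (-0.02), *Ifitm1* (-0.05), *Bst2* (-0.02) and *Ifi35* (-0.05); with the offset in *Ifitm1* (-0.14), *Isg15* (-0.07), *Bst2* (-0.11), *Ifi35* (-0.10) and *Trim30a* (0.02); with the block in *Ifi35* (-0.0011); and in limma-trend in *Trim30a* (0.0037 and 0.0033 for pseudocounts of 1 and 8). Without 1 mouse, the log2 fold change ranged from -0.07 to 0.19 in *Ifih1*, -0.07 to 0.27 in *Irf7*, -0.31 to 0.07 in *Oasl2*, -0.47 to 0.13 in *Ifit1*, -0.0042 to 0.39 in *Ifit3*, -0.18 to 0.37 in *Ifitm1*, -0.06 to 0.46 in *Isg15*, -0.14 to 0.39 in *Igtp*, -0.24 to 0.17 in *Rsad2*, -0.10 to 0.25 in *Bst2*, -0.64 to 0.08 in *Ifi44*, -0.10 to 0.11 in *Ifi35* and -0.08 to 0.09 in *Trim30a*. The median log2 fold change of the 31 genes, 0.06, ran from -0.02 to 0.11 over the alternatives that kept all mice. Without 1 mouse it ran from -0.03 to 0.19. These shifts were below 0.219, the spread between mice of a genotype in the mean log2 deviation of these genes. That is a wide limit beside a median of 0.06. At about 3 counts per CPM, members under 5 CPM rest on few counts a mouse.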
